A study of Mus musculus with 20 samples.

Results

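The proteasome is the protease complex that degrades ubiquitin-tagged proteins, and its subunits were followed here in the livers of adult male mice that differed in the temperature their dams had been kept at during pregnancy. The members were all transcript clusters whose platform symbol names an alpha, beta, ATPase or non-ATPase subunit (Psma, Psmb, Psmc or Psmd and a number), without the immunoproteasome subunits Psmb8, Psmb9 and Psmb10. This gave 35 genes, each on 1 row, out of 22206 clusters with 19505 gene symbols. The symbol Psmb5, the subunit with chymotrypsin-like activity, is on no row and was not analysed here.

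Liver RNA of 20 male C57BL/6NCr mice, an inbred wild-type strain, was measured on 1 Affymetrix array per mouse, at an age of 4 to 5 months per the labels. There were 5 offspring each of dams held at 10 °C, 18 °C, 30 °C and 23 °C, the usual housing temperature and the control. Dams were acclimated before mating for 2 weeks at 10 °C and 18 °C and for 3 weeks at 30 °C, while sires had 3 days. All animals were at 23 °C from the day of birth and ate standard chow, so the labels give the groups the same conditions after birth. No litter or dam is named, so the p-values measure only the spread between these arrays, and some of the mice may be littermates. Animals are called below by the numbers in their labels.

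The proteasome consists of a barrel-shaped core particle and a regulatory particle that caps it. The core has outer rings of alpha subunits, which gate entry, and inner rings of beta subunits, some of which cut peptide bonds. The regulatory particle has a base, whose ATPases unfold substrates and feed them into the core, and a lid, which removes the ubiquitin chain. In many cell types the transcription factor NFE2L1 raises the subunit genes together when proteasome activity falls, and the liver, with its high protein turnover, is rich in proteasomes.

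The members' promoters were searched because genes of 1 complex could share sequence elements. RefSeq windows (GRCm38.p6) were found for 28 of the 35 members, giving 30 windows of 250 bases before an annotated start, against 32851 windows of all genes, noncoding ones included. Both strands were searched for 9 motifs. The ETS-family core CCGGAAG was in 10 of the 30 member windows, from 9 genes, which is 33.3% against 6.91% of all windows. The letters TGACNNNGC, the core of the antioxidant-type element to which NFE2L1 binds, were in 4 member windows, 13.3% against 10.2% of all windows. CCAAT was in 12 member windows, 40.0% against 33.8%, and TGAGNNNGC, a variant of the NFE2L1 core, was in 9, 30.0% against 14.4%. The remaining motifs were rarer. TATAAA and the interferon-type element were each in 3 member windows, 10.0% against 12.4% and 2.98% of all windows. The palindrome of nuclear respiratory factor 1 was in 1, 3.33% against 0.782% of all windows. TGACTCAGC and the heat shock element were in 0, against 0.39% and 0.466% of all windows. A match says only that these letters are present, and letters can overlap between motifs. The stretches shown first are the 4 with TGACNNNGC, in capitals, which for Psmd12 and Psmc6 reads on the opposite strand.
Psmd9, chr5:123228139-123228187, plus strand: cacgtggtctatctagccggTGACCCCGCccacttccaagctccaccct
Psmb6, chr11:70525328-70525356, plus strand: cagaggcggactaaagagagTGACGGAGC
Psmd12, chr11:107479278-107479309, plus strand: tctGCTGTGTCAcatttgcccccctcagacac
Psmc6, chr14:45329577-45329625, plus strand: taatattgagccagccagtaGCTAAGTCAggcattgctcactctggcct
The next stretches show CCGGAAG in capitals, for the 5 genes with this motif whose value on every array is given below. It reads on the gene's strand in Psmc6 and Psmd6 and on the opposite strand in Psmd11, in Psmd2 and in the second of the Psmc2 windows, the one shown.
Psmc2, chr5:21786703-21786746, plus strand: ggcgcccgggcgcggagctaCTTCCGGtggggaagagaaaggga
Psmd11, chr11:80428584-80428614, plus strand: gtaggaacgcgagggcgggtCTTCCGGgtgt
Psmd6, chr14:14120964-14121010, minus strand: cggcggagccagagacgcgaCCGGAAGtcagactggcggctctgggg
Psmc6, chr14:45329704-45329750, plus strand: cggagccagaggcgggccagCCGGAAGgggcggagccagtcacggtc
Psmd2, chr16:20651606-20651651, plus strand: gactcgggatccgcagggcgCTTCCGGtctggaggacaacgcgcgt
In Psmd11 the motif begins 11 bases before the annotated start, in Psmc2 24, in Psmd2 26, in Psmd6 45 and in Psmc6 100.

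Values are log2 expression per transcript cluster, so a difference of 1 is a doubling. Array values correlated at 0.987 to 0.993 between any pair of arrays, and no array duplicated another. Background was judged from 1091 olfactory receptor clusters, whose 95th percentile lay at 3.90, and from negative control rows, which averaged 4.40 to 4.75 per array. The hepatocyte markers Alb, Apoa1, Ttr, Cyp2e1 and Serpina1c lay near the top of the scale, so the tissue label was borne out, while B cell, T and NK cell and neutrophil markers were all at background. All 6 Kupffer cell markers were above background. Their median difference from the 23 °C controls was 0.35 in 10 °C, 0.27 in 18 °C and -0.021 in 30 °C offspring. In 10 °C and in 18 °C offspring 5 were higher and 1 lower, and 0 passed the adjusted test. The 5 sinusoidal endothelial markers had medians of 0.16 in 10 °C (2 lower) and 0.18 in 18 °C offspring (1 lower). Whether such differences have a part in the members' values was not tested. In bulk liver, fewer cells of a type and less RNA per cell cannot be told apart. Background control rows averaged 3.71 ± 0.02 in 10 °C and 3.71 ± 0.04 in 18 °C offspring, slightly brighter than 3.65 ± 0.02 in the 23 °C controls (SD, n = 5 each). The negative control rows went the other way, at 4.53 ± 0.03, 4.49 ± 0.07 and 4.63 ± 0.09 in the same groups. Only the background control rows entered the covariate fits below. Since their level differed between the groups, those fits cannot fully separate it from maternal temperature.

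Of the 35 members, 33 were above background, with mean levels of 7.84 to 14.12, and 24 were in the top 10% of all clusters. The highest means were those of Psmb7 (14.12), the beta subunit with trypsin-like activity, Psma4 (14.08), an alpha-ring subunit, and Psmd13 (13.38), a lid subunit. Since probes differ in brightness, this order does not rank the genes' transcripts. The 2 members at background were Psma8 (3.34), the testis alpha subunit, and Psmb11 (2.51), the beta subunit of the thymic cortex. The lowest member above background was Psmd10 (7.84), a chaperone of base assembly also known as gankyrin.

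No subunit gene of the proteasome passed the test in any of the 6 pairwise comparisons, in the 4-group F-test or in the slope on maternal temperature (limma, Benjamini-Hochberg adjusted over all clusters, threshold 0.05). Of all clusters, 0.00901% passed between 10 °C offspring and the controls, and 0% in each of the other comparisons, so 0 of 35 members is near the background. The members' median difference from the controls was -0.014 in 10 °C, -0.030 in 18 °C and -0.031 in 30 °C offspring, beside 0.0024, -0.0020 and -0.0055 for all clusters. Of the 35, 14 were higher and 21 lower in 10 °C offspring, 14 higher and 21 lower in 18 °C offspring, and 16 higher and 19 lower in 30 °C offspring.

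The intervals, which bound how large a difference these arrays leave room for, were narrow for most members. Each covers a single member and comparison and is not adjusted for their number. Like the p-values, they measure only the spread between these arrays. The limma standard error of a difference had a median of 0.13 over the members above background. The 95% interval lay within 1.5-fold in either direction for 31 of the 33 members in 10 °C, for 31 in 18 °C and for all 33 in 30 °C offspring against the controls, while 56.2%, 59.5% and 64.4% of all clusters had such an interval. Between 10 °C and 30 °C, 18 °C and 30 °C, and 10 °C and 18 °C offspring the counts were 31, 33 and 31 of the 33, beside 62.2%, 60.8% and 61.1% of all clusters. Against the controls, the exceptions were Psmd14 and Psmd9 in 10 °C offspring and Psmc2 and Psmd9 in 18 °C offspring. The 33 members had a median level of 11.67, against 4.41 for all clusters, and the share for clusters of like level was not computed.

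**Figure D1:**
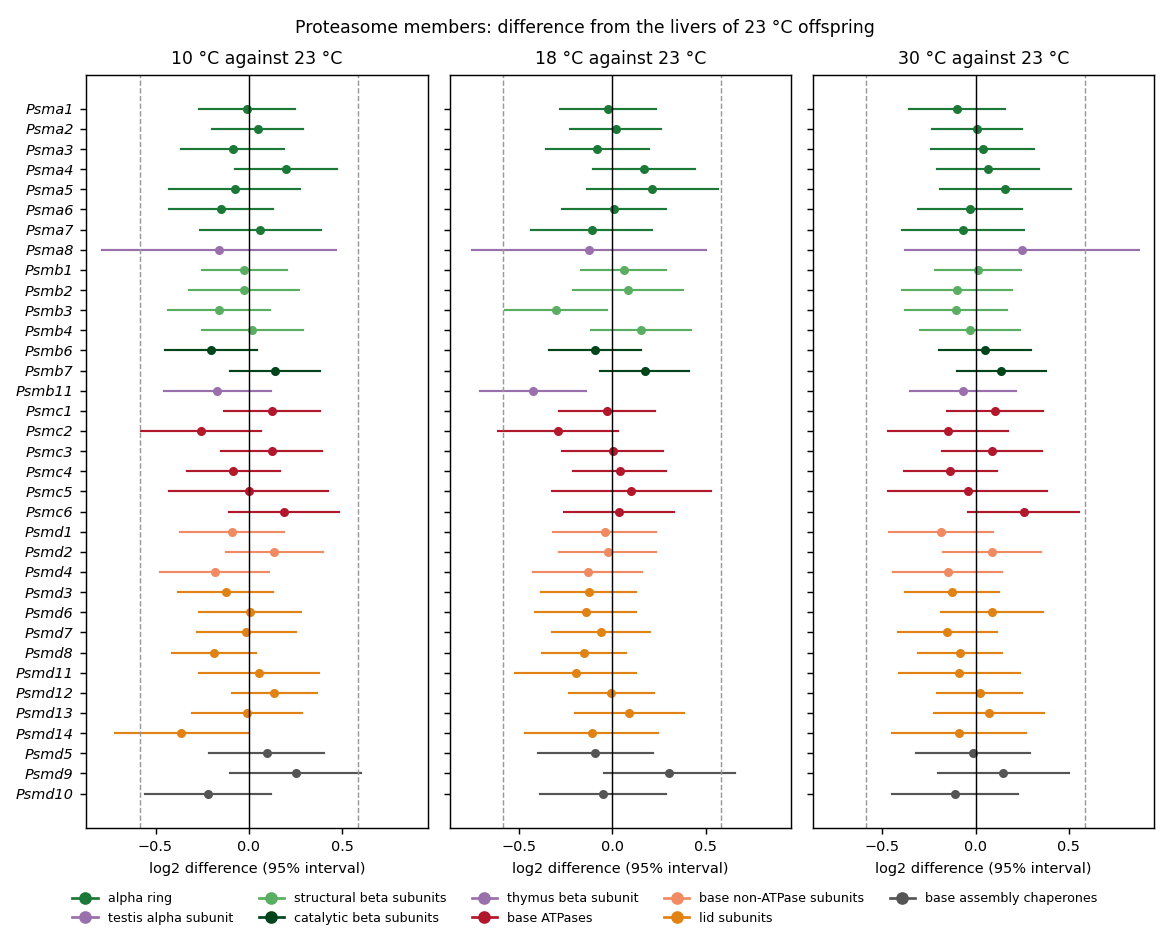
Difference in log2 expression from the 23 °C controls for each of the 35 members (points) with its 95% limma interval (bars), in 10 °C, 18 °C and 30 °C offspring, coloured by role in the complex. Dashed lines mark 1.5-fold in either direction, and most intervals lie between them and cross 0.

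Differences from the controls in the alpha ring were small and of both signs. Its 7 liver-expressed subunits had median differences of -0.011 in 10 °C, 0.0091 in 18 °C and 0.0076 in 30 °C offspring, with single values between -0.15 (Psma6, 10 °C) and 0.22 (Psma5, 18 °C). Psma5 had 9.15, 9.40, 9.15, 9.32 and 9.83 in 10 °C offspring, 9.90, 9.68, 9.25, 9.54 and 9.95 in 18 °C offspring, 9.69, 9.52, 9.49, 9.08 and 9.46 in the 23 °C controls and 9.98, 9.46, 9.25, 9.65 and 9.70 in 30 °C offspring. Most 10 °C animals were low and most 18 °C animals high, but the ranges overlapped, and the difference of 10 °C from 18 °C offspring was -0.29 ± 0.17 (SE; 95% interval -0.64 to 0.06; limma adjusted p = 0.692). Psma4 had 14.17, 14.37, 14.12, 13.90 and 14.30 in 10 °C, 14.11, 14.21, 14.23, 13.95 and 14.20 in 18 °C, 14.08, 14.13, 13.74, 13.99 and 13.91 in 23 °C and 14.37, 13.95, 13.82, 13.90 and 14.15 in 30 °C offspring. Its groups overlapped throughout. The testis subunit Psma8, at background, had 3.76, 2.98, 3.11, 3.21 and 2.90 in 10 °C, 3.37, 3.45, 2.41, 2.77 and 4.16 in 18 °C, 2.96, 2.71, 3.64, 3.53 and 3.94 in 23 °C and 2.80, 3.79, 3.61, 3.42 and 4.39 in 30 °C offspring.

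The measured catalytic beta subunits were Psmb6, with caspase-like activity, and Psmb7. Psmb6 had 12.04, 11.52, 11.79, 11.94 and 11.75 in 10 °C offspring, 11.89, 11.95, 11.98, 11.77 and 12.00 in 18 °C offspring, 12.03, 12.17, 11.90, 12.00 and 11.95 in the controls and 11.88, 12.17, 12.21, 11.98 and 12.07 in 30 °C offspring. Its group means followed maternal temperature, 11.81 ± 0.20, 11.92 ± 0.09, 12.01 ± 0.10 and 12.06 ± 0.14 (SD, n = 5 each), but neighbouring groups overlapped and did not differ beyond their spread. The slope was 0.13 ± 0.06 per 10 °C (SE; limma adjusted p = 0.568), and Psmb6 was the 1 member with an unadjusted p under 0.05 for the slope, against 8.15% of all clusters (3.85% with a positive slope). The next smallest p for the slope belonged to Psmd14 (0.14 per 10 °C) and Psma8 (0.20 per 10 °C), and these were 0.077 without 10 °C animal 2 and 0.11 without 30 °C animal 8. Against the controls, Psmb6 in 10 °C offspring differed by -0.20 ± 0.12 (adjusted p = 0.529), and by -0.13 without 10 °C animal 4. Between 10 °C and 30 °C offspring the difference was -0.25 ± 0.12 (adjusted p = 0.730), again the 1 member under that unadjusted p, against 6.76% of all clusters (3.13% lower). The groups' means were in rising order with maternal temperature for 3 members, Psma3, Psma8 and Psmb6, and in falling order for 0, against 3.92% and 4.49% of all clusters.

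Psmb7 had 14.10, 14.03, 14.18, 14.22 and 14.19 in 10 °C offspring, 14.17, 14.09, 14.23, 14.11 and 14.27 in 18 °C offspring, 13.85, 14.21, 13.86, 13.92 and 14.17 in the controls and 14.34, 14.10, 13.95, 14.22 and 14.09 in 30 °C offspring. Among the controls, 3 animals lay below 14 and the other two were level with the remaining groups. Its differences from the controls were 0.14 ± 0.12, 0.17 ± 0.12 and 0.14 ± 0.12 in 10 °C, 18 °C and 30 °C offspring, which share those controls. Adjusted p was 0.678, 0.689 and 0.986 (limma), and the 30 °C difference was 0.088 without 30 °C animal 4.

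The structural beta subunits are Psmb1, Psmb2, Psmb3 and Psmb4, which build the inner rings without cutting. Psmb3 had 10.73, 10.53, 10.53, 10.68 and 10.55 in 18 °C offspring, against 10.99, 10.94, 10.95, 10.62 and 11.03 in the controls. Of the controls, 4 lay above every 18 °C animal, while animal 17, at 10.62, fell inside the 18 °C range. The difference was -0.30 ± 0.13 (95% interval -0.57 to -0.03; limma adjusted p = 0.50), and it was -0.14 once each array's background control level entered as a covariate. At an unadjusted p under 0.05 there were 2 members, Psmb3 and Psmb11, both lower, against 9.25% of all clusters (4.89% lower). The remaining Psmb3 values were 10.75, 10.84, 10.70, 10.88 and 10.54 in 10 °C and 10.44, 10.79, 10.85, 11.15 and 10.77 in 30 °C offspring. Psmb1, Psmb2 and Psmb4 differed from the controls by -0.026 to 0.15 in 10 °C and 18 °C offspring.

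Psmb11 lay at background on every array, where RMA values are compressed and a difference cannot be read as a change of a transcript. It had 2.08, 2.07, 2.32, 2.41 and 2.36 in 18 °C offspring, against 2.59, 2.97, 2.69, 2.62 and 2.50 in the controls. These groups did not overlap, which was so for no other member in this comparison and for 1.81% of all clusters (1.04% lower). The difference was -0.42 ± 0.14 (limma adjusted p = 0.369), and -0.27 with the background control level as a covariate. Psmb11 had 2.28, 2.55, 2.65, 2.50 and 2.55 in 10 °C and 2.35, 2.49, 3.01, 2.69 and 2.50 in 30 °C offspring. It was the 1 member with an unadjusted p under 0.05 between 18 °C and 30 °C offspring (8.21% of all clusters, 4% lower) and in the F-test (9.86%), with adjusted p of 0.507 and 0.454.

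**Figure D2:**
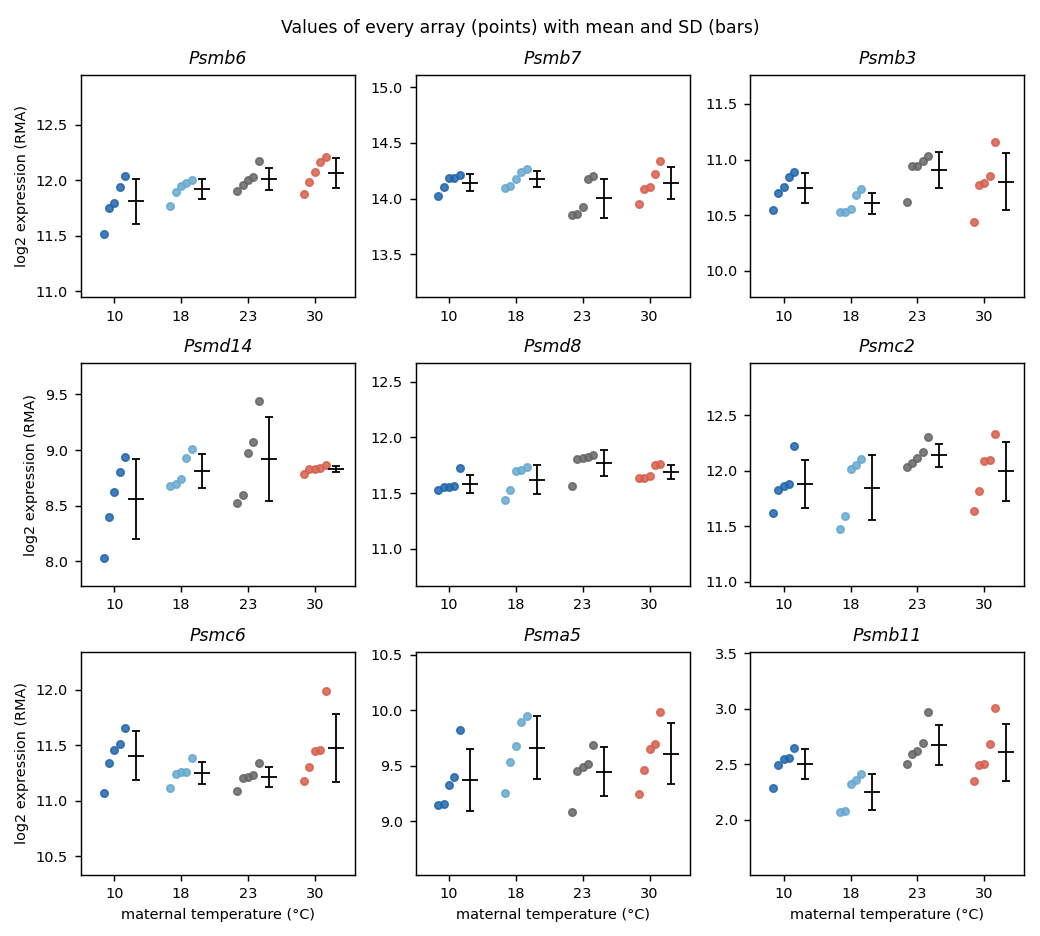
Log2 expression of 9 members on each array (points, 5 per group), with mean and SD (bars), by maternal temperature in °C. Each panel has its own range of levels; groups overlap in most panels, and in Psmb11, at background, the 18 °C animals lie below the 23 °C controls.

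The base of the regulatory particle was split between higher and lower members. Of the 6 ATPases, 3 were higher and 3 lower in 10 °C, 4 higher and 2 lower in 18 °C, and 3 higher and 3 lower in 30 °C offspring, with medians of 0.061, 0.019 and 0.023. The ATPase Psmc2 had 12.10, 11.59, 11.47, 12.06 and 12.02 in 18 °C offspring, against 12.07, 12.12, 12.30, 12.17 and 12.03 in the controls. Animals 3 and 4 of the 18 °C group were low and the other three lay at the control level or just under it. The difference was -0.29 ± 0.16 (limma adjusted p = 0.587), and it was -0.04 with the background control level as a covariate. In 10 °C offspring Psmc2 had 11.87, 11.62, 11.88, 12.22 and 11.82, and in 30 °C offspring 11.64, 11.81, 12.08, 12.33 and 12.10.

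The ATPase Psmc6 had 11.44, 11.30, 11.18, 11.46 and 11.98 in 30 °C offspring, against 11.20, 11.34, 11.23, 11.09 and 11.22 in the controls. Animal 8, at 11.98, was the highest of all 20 arrays, and without it the difference of 0.26 ± 0.14 (limma adjusted p = 0.978) was 0.13. Psmc6 had 11.07, 11.51, 11.34, 11.66 and 11.45 in 10 °C and 11.26, 11.24, 11.26, 11.11 and 11.39 in 18 °C offspring. The scaffold subunit Psmd1 had 12.00, 12.04, 12.01, 11.78 and 11.81 in 30 °C offspring, against 12.01, 11.99, 12.38, 12.35 and 11.83 in the controls, a difference of -0.19 ± 0.13 (adjusted p = 0.978), and -0.12 without control animal 15. The groups overlapped, with 2 of the controls above all 30 °C animals by a wide margin. Psmd1 had 12.05, 12.10, 11.87, 12.12 and 11.97 in 10 °C and 12.16, 12.18, 11.71, 12.16 and 12.14 in 18 °C offspring. In 30 °C offspring against the controls, 0 members had an unadjusted p under 0.05, against 4.84% of all clusters.

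Psmd2, the other large scaffold subunit of the base, had 12.70, 12.83, 12.69, 12.63 and 12.59 in 10 °C offspring, against 12.47, 12.51, 12.51, 12.56 and 12.58 in 18 °C offspring. Every 10 °C value lay above every 18 °C value, the 1 such member in this comparison, against 1.42% of all clusters (0.752% higher). The difference was 0.16 ± 0.13 (limma adjusted p = 0.789), and the lowest 10 °C value, 12.59, was next to the highest 18 °C value, 12.58. At an unadjusted p under 0.05 this comparison had 0 members, against 8.1% of all clusters. No member's groups were apart between 10 °C offspring and the controls (2.45% of all clusters), between 30 °C offspring and the controls (0.752%), or between 30 °C and either 10 °C (0.982%) or 18 °C offspring (1.41%). Psmd2 was named after its values were seen. The controls had 12.71, 12.69, 12.23, 12.47 and 12.65 and the 30 °C offspring 12.71, 12.52, 12.33, 12.73 and 12.90, spanning both groups. Psmd4, a ubiquitin receptor of the base, differed from the controls by -0.18 in 10 °C, -0.13 in 18 °C and -0.15 in 30 °C offspring, without passing the test.

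Of the 8 lid subunits, 5 were lower in 10 °C, 7 in 18 °C and 5 in 30 °C offspring, with median differences of -0.012, -0.12 and -0.085, and none passed the test. Psmd14, the deubiquitinase that removes ubiquitin chains, gave the member difference farthest from 0 in 10 °C offspring. It had 8.03, 8.81, 8.93, 8.40 and 8.63 in 10 °C offspring, against 9.07, 8.60, 9.44, 8.52 and 8.97 in the controls. Both groups were wide and overlapped, and animal 2 at 8.03 was the lowest of all. The difference was -0.36 ± 0.17 (95% interval -0.72 to -0.0042; limma adjusted p = 0.423), and -0.23 without animal 2 or without control animal 15. It was the 1 member with an unadjusted p under 0.05, against 11.6% of all clusters (5.91% lower). Psmd14 had 9.01, 8.74, 8.93, 8.68 and 8.69 in 18 °C and 8.83, 8.79, 8.83, 8.87 and 8.84 in 30 °C offspring, with the 30 °C values closest together.

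Psmd8, another lid subunit, had 11.52, 11.55, 11.56, 11.73 and 11.56 in 10 °C offspring, against 11.57, 11.81, 11.84, 11.83 and 11.81 in the controls. In each group 1 animal lay apart, animal 6 high among the 10 °C offspring and animal 1 low among the controls, and these made the groups overlap. The difference was -0.19 ± 0.11 (limma adjusted p = 0.521). Psmd8 had 11.74, 11.44, 11.53, 11.70 and 11.71 in 18 °C and 11.64, 11.64, 11.66, 11.75 and 11.76 in 30 °C offspring. The lid subunit Psmd11 had 11.81, 11.86, 12.20, 12.07 and 11.85 in 10 °C offspring, against 11.60, 11.62, 11.45, 11.71 and 12.15 in 18 °C offspring, a difference of 0.25 ± 0.16 (adjusted p = 0.714). Animal 7 of the 18 °C group, at 12.15, was well above its group. Psmd11 had 11.82, 11.50, 12.37, 12.06 and 11.77 in the controls and 11.75, 11.88, 11.69, 11.88 and 11.86 in 30 °C offspring. Psmd6 had 10.72, 10.78, 10.80, 10.84 and 10.62 in 18 °C offspring, against 11.33, 10.74, 10.83, 10.96 and 11.04 in 30 °C offspring, a difference of -0.23 ± 0.13 (adjusted p = 0.689), and -0.14 without 30 °C animal 4, at 11.33. The groups overlapped in both genes. Psmd6 had 10.87, 10.95, 10.55, 11.004 and 11.14 in 10 °C offspring and 10.91, 10.86, 10.78, 11.05 and 10.87 in the controls. Psmd13 had 13.15, 13.31, 13.13, 13.35 and 13.72 in 10 °C, 13.52, 13.14, 13.57, 13.64 and 13.30 in 18 °C, 13.35, 13.38, 13.23, 13.47 and 13.28 in 23 °C and 13.39, 13.43, 13.10, 13.72 and 13.44 in 30 °C offspring, with all groups overlapping.

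The base assembly chaperones Psmd5, Psmd9 and Psmd10 hold parts of the base until the particle closes and leave the finished complex. Psmd9 was higher than in the controls by 0.25 ± 0.17 in 10 °C, 0.31 ± 0.17 in 18 °C and 0.15 ± 0.17 in 30 °C offspring, with adjusted p of 0.595, 0.603 and 0.987 (limma). Psmd10 had 7.83, 7.52, 7.66, 8.27 and 7.28 in 10 °C, 7.90, 7.78, 8.04, 7.76 and 7.93 in 18 °C, 8.06, 8.04, 8.01, 7.95 and 7.60 in 23 °C and 7.57, 7.78, 7.63, 8.13 and 8.01 in 30 °C offspring. The groups overlapped, with the widest spread among the 10 °C animals.

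Differences of members with and without the promoter motifs shown above overlapped. The 4 with TGACNNNGC differed from the controls by a median of 0.16 in 10 °C, 0.015 in 18 °C and 0.0995 in 30 °C offspring, against -0.011, -0.040 and -0.043 for the 23 others above background with a window (Psmb11, at background, is left out). For the 9 with CCGGAAG the medians were 0.054, -0.030 and 0.023, against -0.044, -0.031 and -0.037 for the other 18. With groups this small these medians are a description only.

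The members varied little among animals of 1 group. The within-group SD had a median of 0.17 over the 33 members above background, ranging from 0.10 to 0.34 (Psmc5, an ATPase), against 0.29 over all clusters. For 32 of the 33 it was under the median of all clusters, and for 28 of the 33 it was under the median of clusters of like level. The range of the 4 group means was 0.18 at the median, against 0.30 for all clusters and 0.31 for clusters above the median level. For this range, clusters of like level were not compared. The highest group mean fell in 10 °C offspring for 9 members, in 18 °C for 10, in 23 °C for 10 and in 30 °C for 4.

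**Figure D3:**
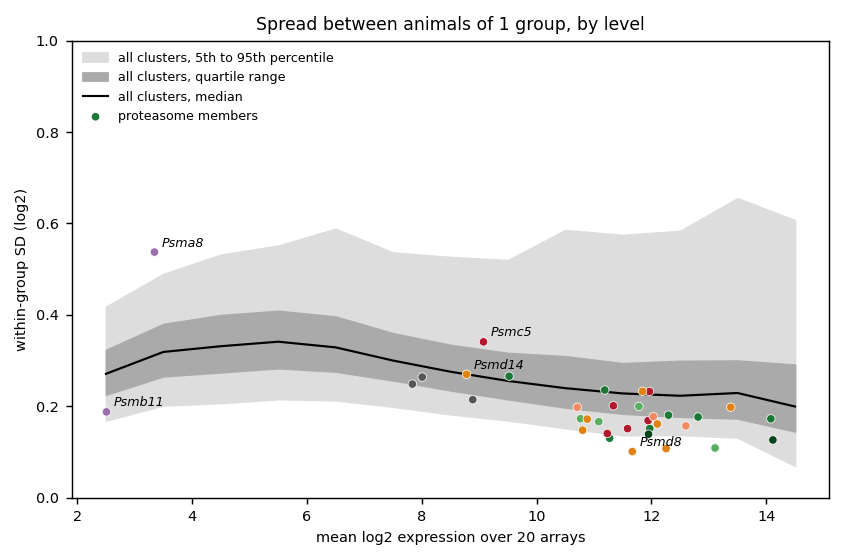
Within-group SD of log2 expression against mean level over 20 arrays for the 35 members (points, coloured by role) and for all clusters (line, median; shaded bands, quartile range and 5th to 95th percentile). Most members above background lie below the line for clusters of like level, and Psmc5 and Psma8 are among those above it.

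The subunits shared little of their animal-to-animal variation. Over the 20 arrays, deviations from the group means correlated at a mean Pearson r of 0.068 over the 528 pairs of the 33 members. Of these pairs, 310 were positive. The mean r was 0.00049 over pairs of all clusters and 0.0061 over pairs of clusters above the median level. Among the members it was 0.10 for the 13 core subunits and 0.049 for 17 of the regulatory particle. All these pairs share the same arrays and their normalisation, so they give a description only. The mean deviation of the 33 members from their own means ran from -0.098 to 0.093 per array. On 30 °C animal 6, 7 of the 33 lay above their own mean, and on 30 °C animal 8, 26 did.

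Heat shock genes, many of them chaperones of misfolded proteins, spread more widely over these arrays than the members. The 10 measured heat shock genes deviated by 1.28 and 0.69 on average from their own means on 23 °C animals 1 and 2, and by -0.11 to -0.098 on the other three controls. The members' deviation on those 2 arrays was -0.026 and 0.093. Against the controls, all 10 heat shock genes were lower in 10 °C offspring, by a median of -0.77, with 8 at an unadjusted p under 0.05 (5.91% of all clusters were lower at that p) and 0 passing the adjusted test. All 10 were also lower in 30 °C offspring, by a median of -0.42, with 1 at that p (4.84% of all clusters in either direction). In 18 °C offspring 7 of the 10 were lower, by a median of -0.077. The 10 °C arrays had mean deviations of -0.55 to -0.22.

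**Figure D4:**
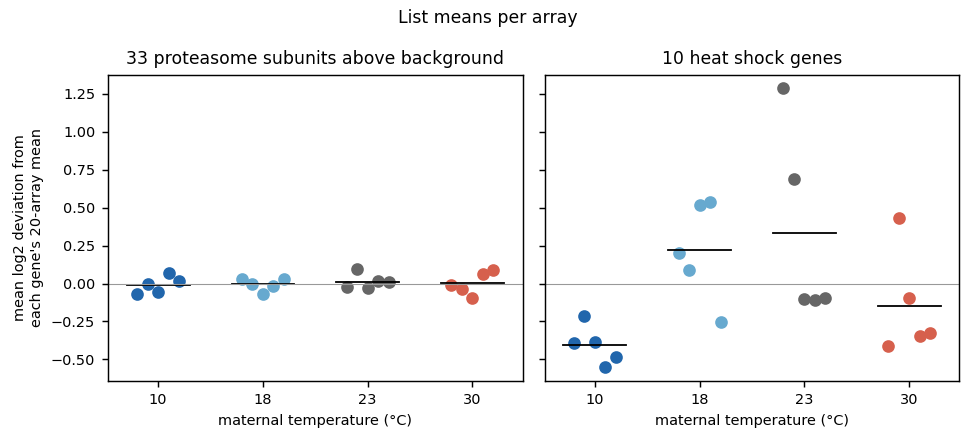
Mean log2 deviation from each gene's own 20-array mean, per array, for the 33 members above background (left) and 10 heat shock genes (right), by maternal temperature in °C; lines are group means. The members' points lie within 0.10 of 0, while the heat shock points spread from -0.55 to 1.28.

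The other genes of the pathway were taken from fixed lists, of which 45 of 54 genes were measured, and 0 passed the adjusted test in any comparison. At an unadjusted p under 0.05, 4 were higher and 2 lower in 10 °C, 2 higher and 1 lower in 18 °C, and 2 higher and 2 lower in 30 °C offspring against the controls, that is 6, 3 and 4 of the 45, beside 11.6%, 9.25% and 4.84% of all clusters. Pomp, which matures the core, had 10.34 ± 0.17 in 10 °C offspring and 10.66 ± 0.16 in the controls, a difference of -0.32 ± 0.14 (limma adjusted p = 0.365). Psmg2, an alpha-ring chaperone, differed by -0.31 ± 0.17 (adjusted p = 0.479). Psme1, a subunit of the alternative activator, had 15.31 ± 0.11 in 18 °C offspring and 15.04 ± 0.10 in the controls (adjusted p = 0.493), while its partner Psme2 had 10.15 ± 0.15 and 9.97 ± 0.13 (adjusted p = 0.762).

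Nfe2l1, the regulator of subunit genes, had 12.64 ± 0.14 in 10 °C, 12.45 ± 0.22 in 18 °C, 12.56 ± 0.15 in 23 °C and 12.33 ± 0.22 in 30 °C offspring. Its relative Nfe2l2 had 5.96 ± 0.20 in 30 °C offspring and 6.39 ± 0.23 in the controls (difference -0.42 ± 0.20; limma adjusted p = 0.978). Among genes of the Vcp segregase, which pulls proteins out of complexes, Ufd1 had 8.91 ± 0.42 in the controls. It was lower in 10 °C (8.35 ± 0.34), 18 °C (8.56 ± 0.48) and 30 °C offspring (8.33 ± 0.54), with limma adjusted p of 0.407, 0.728 and 0.978. Faf2 had 8.75 ± 0.15 in 18 °C offspring and 9.16 ± 0.17 in the controls (limma adjusted p = 0.370). Also read were Ubqln4 and Rad23b, which bring substrates, the ubiquitin ligase Ube3a, the proteasome-associated protein Ecpas and the ubiquitin-activating enzyme Uba6. They differed from the controls by -0.19 to 0.29 in the 3 groups.

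The immunoproteasome subunits, which replace the catalytic ones in cells exposed to interferon, were set aside from the members. Psmb10 had 7.79 ± 0.18 in 10 °C, 7.53 ± 0.17 in 18 °C and 7.65 ± 0.53 in 30 °C offspring, against 7.16 ± 0.22 in the controls. Its differences from the controls were 0.62 ± 0.19, 0.36 ± 0.19 and 0.49 ± 0.19 (limma adjusted p = 0.214, 0.586 and 0.978). Psmb9 had 7.44 ± 0.40 in 18 °C offspring and 6.63 ± 0.37 in the controls (0.81 ± 0.26, limma adjusted p = 0.346). It had 6.63 ± 0.55 in 10 °C and 6.68 ± 0.44 in 30 °C offspring. Neither gene passed the test. The 3 subunits had median differences of 0.42 in 10 °C, 0.36 in 18 °C and 0.43 in 30 °C offspring.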

How the data were processed

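The authors deposited a table of log2 expression values with a row per probe set and a column per array. RMA (background correction, quantile normalisation, probe summary) and the Transcriptome Analysis Console are the tools in the submitters' processing notes. Their versions and the genome build are not given in the sources used here. After quantile normalisation all arrays have the same distribution, which hides any change common to every transcript. Of 28846 rows, 6640 control rows were left out of the tests. Symbols came from the platform annotation, and all 35 member gene identifiers matched the RefSeq table.

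The 22206 clusters were modelled in R 4.3.3 by limma 3.58.1 (1 mean per group, 20 arrays sharing 1 estimate of the spread), with two-sided tests and Benjamini-Hochberg adjustment over all clusters. The fit was tested on simulated data. Errors are limma standard errors, or SD where said. The number of arrays limits the precision. The members, lists, motifs and tests were chosen with earlier results of these data known. Named with every array's value were the 3 members of smallest p in each test, the catalytic subunits, and the 3 highest and 3 lowest means; of the other lists, up to 2 genes each by F-test p. Animal numbers recur between groups, but of 11 same-number pairs 1 correlated over 0.1, so they were not treated as pairs. Alternatives left out each array, or changed the groups fitted, the variance model, weights, filter, centring and covariate.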

Additional observations from a re-analysis of the deposited data

Results flagged for a closer look

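In 7 of 140 groups of 5 values, 1 animal's member value lay farther from the nearest other than Dixon's 95% limit allows, and chance alone flags about 1 in 20 groups, here 7. Among the 18 °C offspring, animal 4 was low for Psmd1 (11.71, against 12.14 to 12.18 in the others) and for Psmd7, a lid subunit (11.73, against 12.16 to 12.21). Among the 10 °C offspring, animal 6 was high for Psmd8 (11.73, against 11.52 to 11.56). Among the 23 °C controls, animal 1 was low for Psmd8 (11.57, against 11.81 to 11.84), animal 17 for Psmb3 (10.62, against 10.94 to 11.03), animal 15 for the ATPase Psmc3 (11.59, against 11.90 to 12.01) and animal 23 for Psmd10 (7.596, against 7.95 to 8.06).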

How the results depend on the processing

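The count of members passing the adjusted test stayed at 0 for the 6 comparisons in each of the 27 other settings, 20 of which left out 1 array, and for the F-test and the slope in all of these but the fit of only the 2 groups compared, which gives neither. The members' median difference from the controls ran from -0.05 to 0.02 in 10 °C, -0.05 to -0.0067 in 18 °C and -0.05 to 0.03 in 30 °C offspring when 1 array was left out. In these fits the count of members at an unadjusted p under 0.05 was less steady. It ran from 0 to 3, 1 to 3 and 0 to 1 in these groups, against 1, 2 and 0 with all arrays. Of 560 values of named members under other settings, 558 kept their sign. With the animal number as a replicate block, Psmc6 and Psmd1 in 30 °C offspring against the controls turned to -0.047 and 0.023, against 0.26 and -0.19 without it; the members' median with the block was -0.047 there. With the block Psmb11 in 18 °C offspring was -0.66 and Psmc2 -0.10, against -0.42 and -0.29 without it. Without 30 °C animal 8, the difference of 18 °C from 30 °C offspring in Psmc6 was -0.094, against -0.22. Without 10 °C animal 2, that of 10 °C from 30 °C offspring in Psmd14 was -0.14, against -0.27, and without 30 °C animal 4 that in Psma5 was -0.14, against -0.24 (-0.38 with the background control covariate). The numbers do not pair the samples. The 30 °C offspring and the controls share no number, and control animals 15, 17 and 23 share theirs with no other array. With the block, differences from the controls therefore rest on control animals 1 and 2 alone, linked through other groups. The cause of the shifts in the other fits was not tested. Taking the mean of a gene's rows was not run, since each member has 1 row. Centring the arrays moved the median of all clusters by at most 0.043. Members at background have compressed values.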
